A study of Homo sapiens with 6 samples.

Results

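The 10 genes described here encode the high mobility group (HMG) chromatin proteins: HMGB1, HMGB2 and HMGB3, HMGA1 and HMGA2, and HMGN1, HMGN2, HMGN3, HMGN4 and HMGN5. They were chosen by symbol from the authors' annotated gene table, on reference chromosomes only, and are 10 of 63152 genes counted. The cells were A549, an established human lung adenocarcinoma line, reverse transfected with siRNA at 10 nM and harvested at 72 hours. One group received a siGENOME SMARTpool against RPS19 (siRPS19), a small-subunit ribosomal protein gene, and the other an ON-TARGETplus non-targeting siRNA (siOTP). There were 3 biological replicates per group, so the product line of the siRNA differed along with its target. The comparison asks how mRNA levels differ after siRNA against RPS19, and protein was not measured.

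HMG proteins are abundant, non-histone proteins that alter the shape and packing of chromatin. HMGB proteins bend DNA through HMG-box domains, and HMGB1 outside the cell also acts as a danger signal. HMGA proteins bind the minor groove of AT-rich DNA through AT-hooks and are typically high in embryonic and tumour cells. HMGN proteins bind the nucleosome core itself and counter the compaction that linker histone H1 brings about.

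Counts on genes came to 20814110 to 23889372 per siRPS19 library and 21404467 to 23009335 per siOTP library. Reads outside genes took 5.13% to 6.36% of all entries in siRPS19 and 3.39% to 3.85% in siOTP, and the part of this in the results was not tested. RPS19 had 1159, 830 and 1073 counts in the siRPS19 libraries, against 30731, 27124 and 30387 in the siOTP libraries, so all 6 labels fit the targeted gene. The epithelial genes EPCAM, KRT8, KRT18, KRT19 and CDH1 were detected in every library. Their summed level was 1223 to 1407 CPM (counts scaled to the library total) in siRPS19 and 1595 to 2023 CPM in siOTP. Mean KRT8 was 829 CPM in siRPS19 and 1319 CPM in siOTP, and KRT18 and EPCAM were also lower in siRPS19. KRT19 was higher, at 270 CPM in siRPS19 and 32.3 CPM in siOTP, as was CDH1, at 55.1 and 27.7 CPM. The alveolar genes NKX2-1 and SFTPA1 had no count in any library, and the 5 alveolar markers together reached 3.46 to 4.40 CPM in siRPS19 and 1.19 to 1.35 CPM in siOTP. The 9 leukocyte, endothelial and fibroblast markers summed to 16.6 to 22.5 CPM in siRPS19 and 29.4 to 36.3 CPM in siOTP, nearly all of it COL1A1, and the leukocyte marker CD3E had no count. In bulk RNA, a change in the make-up of the culture and a change per cell cannot be told apart.

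Most HMG genes were lower after RPS19 siRNA, and none was called higher in the main test. The test was edgeR's quasi-likelihood test over 17171 genes with a threshold of 0.05 on the adjusted p. Of the 10 genes, 7 fell and 0 rose, where 78.3% of all tested genes were called, 38.9% lower and 39.5% higher. No member was higher at an unadjusted p of 0.05 either, and DESeq2 and limma-voom also called 0 higher. With library totals as the scale, 2 members were called higher, where 9114 of 17171 tested genes were. These were HMGN3 at 0.22 and HMGN5 at 0.42 on the log2 scale, beside a median of 0.31 for all genes. All 10 passed the filter on low counts. Levels below are CPM after TMM normalisation, which assumes that most genes do not differ, whereas 78.3% of tested genes were called here. The near-even shares of lower and higher calls depend on this scaling, as library totals gave 4734 lower and 9114 higher. The median log2 fold change of the 10 was -0.95, beside 0.02 over all tested genes. Of the 10, 5 fell at least 2-fold, where 12.4% of tested genes did. The siRPS19 and siOTP libraries did not overlap for the 7 that fell, a separation seen for 79.7% of all tested genes, and with siRPS19 lower for 39.6%. The falls were graded: HMGB2 fell 16.2-fold, HMGA1, HMGN2 and HMGB1 between 3.54-fold and 4.23-fold, HMGN1 2.21-fold, and HMGN4 and HMGB3 by less. HMGA2, HMGN3 and HMGN5 did not pass the threshold.

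**Figure D1:**
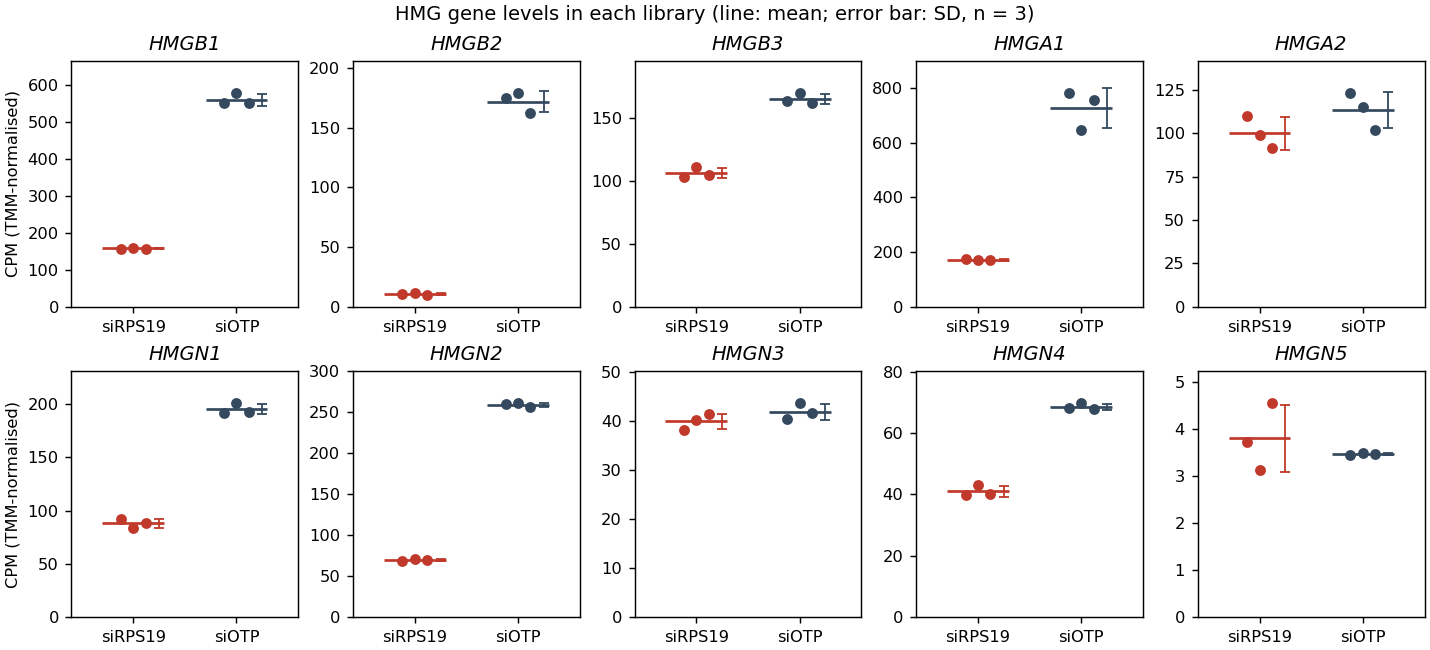
Level of each HMG gene in TMM-normalised CPM (vertical axes, each starting at 0) in the 3 siRPS19 libraries (left, red) and the 3 siOTP libraries (right, dark blue), with points for libraries, lines for means and bars for SD. The groups are apart for HMGB1, HMGB2, HMGB3, HMGA1, HMGN1, HMGN2 and HMGN4, and overlap for HMGA2, HMGN3 and HMGN5.

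The stretches of DNA upstream of these genes are shown because 7 members fell together. RefSeq's promoter table (GRCh38.p14, a different build from the hg19 of the counts) held 12 start sites for 8 of the 10 members. Not in that match were HMGB2 and HMGA2. The 250 bases before each start were searched on both strands for CCAAT, the core bound by NF-Y, for TTTGAA, the core of the cell cycle homology region, and for TTTCCCGC, TTTCGCGC, TTTGCCGC and TTTGGCGC, words bound by E2F factors. Words were counted wherever they occurred, so neighbouring words may share end letters. For 5 members the first listed start is printed 5′ to 3′ on the gene's strand, in lower case with matches in capitals (ATTGG is CCAAT on the other strand):
HMGB1 (chr13:30465937-30466186, minus strand): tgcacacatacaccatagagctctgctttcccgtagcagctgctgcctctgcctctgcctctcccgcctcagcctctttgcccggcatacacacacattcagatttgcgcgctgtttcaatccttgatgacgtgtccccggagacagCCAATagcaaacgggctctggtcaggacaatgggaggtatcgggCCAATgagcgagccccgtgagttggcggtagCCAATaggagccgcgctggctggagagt
HMGB3 (chrX:150983085-150983334, plus strand): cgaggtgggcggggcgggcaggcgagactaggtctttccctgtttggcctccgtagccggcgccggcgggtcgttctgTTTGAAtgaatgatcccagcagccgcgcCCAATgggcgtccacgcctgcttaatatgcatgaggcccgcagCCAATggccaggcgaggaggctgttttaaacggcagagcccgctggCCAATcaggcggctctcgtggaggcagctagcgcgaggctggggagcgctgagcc
HMGA1 (chr6:34236623-34236872, plus strand): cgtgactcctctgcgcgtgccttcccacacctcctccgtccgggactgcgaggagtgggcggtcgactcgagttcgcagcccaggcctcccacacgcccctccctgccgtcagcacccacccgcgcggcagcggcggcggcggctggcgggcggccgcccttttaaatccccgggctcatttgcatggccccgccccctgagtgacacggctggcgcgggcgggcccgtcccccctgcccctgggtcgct
HMGN2 (chr1:26472190-26472439, plus strand): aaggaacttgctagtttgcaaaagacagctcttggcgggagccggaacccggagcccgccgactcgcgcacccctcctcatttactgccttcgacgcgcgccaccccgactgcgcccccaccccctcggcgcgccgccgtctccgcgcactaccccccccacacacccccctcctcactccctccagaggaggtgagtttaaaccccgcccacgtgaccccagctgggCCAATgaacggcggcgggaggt
HMGN3 (chr6:79234683-79234932, minus strand): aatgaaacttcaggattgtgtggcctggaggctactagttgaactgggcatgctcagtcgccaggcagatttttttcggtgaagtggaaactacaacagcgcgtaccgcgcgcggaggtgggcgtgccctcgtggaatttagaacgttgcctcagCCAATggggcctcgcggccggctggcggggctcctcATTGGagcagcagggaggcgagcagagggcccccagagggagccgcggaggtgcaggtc

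The first listed starts of HMGB1 and HMGB3 each held 3 CCAAT words, and 2.93% of the 35116 promoters in the table held 3 or more. HMGN1 and HMGN3 held 2, which 9.53% of promoters reached with 2 or more, and HMGN2 held 1. The window of HMGA1, whose mRNA fell 4.23-fold, held no match at its first start, and its second start held 1 CCAAT. HMGN4 and HMGN5 held no match. In all, 7 of the 12 starts had a CCAAT word (32.0% of all promoters) and 2 had TTTGAA, at HMGB3 and at the second start of HMGB1 (13.3% of all promoters). None had an E2F word (2.79% of all promoters). HMGN3, which did not pass the threshold, thus had more CCAAT words than HMGA1 or HMGN2. A match describes the letters of these windows only.

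The HMGB genes differed most among themselves. HMGB2 (ENSG00000164104, chromosome 4, 174252846 to 174256276, hg19), whose protein is typical of dividing cells, had 10.8, 11.2 and 9.85 CPM in siRPS19 libraries, against 175, 179 and 162 CPM in siOTP libraries. The highest siRPS19 library lay far below the lowest siOTP library. The log2 fold change was -4.02 ± 0.06 (SE; adjusted p = 2.62e-22, edgeR), and 0.856% of tested genes had a lower value. The counts behind it were 282, 258 and 238 in siRPS19, against 3649, 3541 and 3136 in siOTP.

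HMGB1 (ENSG00000189403, chromosome 13, 31032884 to 31191734, hg19), the most widely expressed HMGB gene, had 158, 160 and 158 CPM in siRPS19 libraries, against 552, 579 and 551 CPM in siOTP libraries. The siRPS19 values had an SD of 1.12 CPM and the groups were well apart. Its log2 fold change was -1.82 ± 0.04 (SE; adjusted p = 1.28e-19, edgeR). HMGB3 (ENSG00000029993, chromosome X, 150148982 to 150159248, hg19), best known in mouse from blood progenitor cells, had 103, 111 and 105 CPM in siRPS19, against 164, 170 and 162 CPM in siOTP. It fell by 0.64 ± 0.04 (SE) on the log2 scale (adjusted p = 8.08e-12, edgeR), the smallest fall of the 7. HMGB1 contains 3 other annotated genes by coordinates, RBM22P2, PTPN2P2 and MFAP1P1, with at most 12 counts in any library.

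Of the HMGA pair, HMGA1 fell and HMGA2 hardly differed. HMGA1 (ENSG00000137309, chromosome 6, 34204650 to 34214008, hg19), an architectural factor of proliferating and tumour cells, had 175, 170 and 171 CPM in siRPS19 libraries, against 781, 645 and 755 CPM in siOTP libraries. The siOTP libraries spread more than those of any other member, with replicate 2 lowest, yet remained far above siRPS19. Its log2 fold change was -2.08 ± 0.06 (SE; adjusted p = 1.50e-13, edgeR).

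HMGA2 (ENSG00000149948, chromosome 12, 66217911 to 66360075, hg19), a fetal and tumour-associated gene that let-7 microRNAs repress, had 110, 98.7 and 91.2 CPM in siRPS19, against 123, 115 and 102 CPM in siOTP. The groups overlapped, but each siRPS19 library was lower than the siOTP library of the same number, by 0.17, 0.22 and 0.17 on the log2 scale. In the labels, same-numbered libraries of both groups carry the same date, without saying which step it marks. The log2 fold change was -0.19 ± 0.08 (SE, 95% interval -0.38 to 0.01), with an adjusted p of 0.076 (edgeR), which was 1.87e-04 with the replicate number as a block. Over 18 alternatives its adjusted p ran from 1.62e-06 to 0.90 and its log2 fold change from -0.27 to 0.10, and 8 were past the threshold, so its call depends on these settings. HMGA2 overlaps 5 other annotated genes, among them the antisense pseudogene RPSAP52, with at most 8 counts in any library.

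Among the HMGN genes, 3 fell and 2 did not pass. HMGN2 (ENSG00000198830, chromosome 1, 26798941 to 26802463, hg19), a widely expressed nucleosome-binding protein, had 68.9, 70.9 and 69.4 CPM in siRPS19, against 260, 261 and 256 CPM in siOTP. Both groups were tight and far apart, with a log2 fold change of -1.89 ± 0.04 (SE; adjusted p = 4.33e-20, edgeR). HMGN1 (ENSG00000205581, chromosome 21, 40714241 to 40721573, hg19), a nucleosome-binding protein encoded in the Down syndrome region, had 92.5, 83.8 and 87.9 CPM in siRPS19, against 192, 201 and 193 CPM in siOTP. The log2 fold change was -1.15 ± 0.04 (SE; adjusted p = 1.04e-15, edgeR). HMGN4 (ENSG00000182952, chromosome 6, 26538633 to 26546482, hg19), a gene close in sequence to HMGN2, had 39.9, 43.1 and 40.0 CPM in siRPS19, against 68.3, 69.8 and 67.8 CPM in siOTP. It fell by 0.74 ± 0.05 (SE) on the log2 scale (adjusted p = 1.05e-11, edgeR), and how the counting divided reads between these genes is not known.

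HMGN3 (ENSG00000118418, chromosome 6, 79910962 to 79944406, hg19), a nucleosome-binding protein known in mouse from pancreatic islets and brain, had 38.2, 40.2 and 41.3 CPM in siRPS19, against 40.3, 43.6 and 41.7 CPM in siOTP. The groups overlapped, with siRPS19 lower in 3 of 3 same-numbered pairs (log2 fold change -0.07 ± 0.05 SE, 95% interval -0.18 to 0.04, adjusted p = 0.23 in edgeR). HMGN3-AS1 overlaps it on the other strand, with 8 to 22 counts per library. HMGN5 (ENSG00000198157, chromosome X, 80369200 to 80457441, hg19), whose protein carries a long acidic tail, was the scarcest member at 3.73, 3.12 and 4.55 CPM in siRPS19, against 3.45, 3.49 and 3.46 CPM in siOTP. The siOTP libraries lay within the siRPS19 range (log2 fold change 0.13 ± 0.16 SE, 95% interval -0.19 to 0.46, adjusted p = 0.44 in edgeR). It had 67 to 110 counts per library, the fewest of the members.

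**Figure D2:**
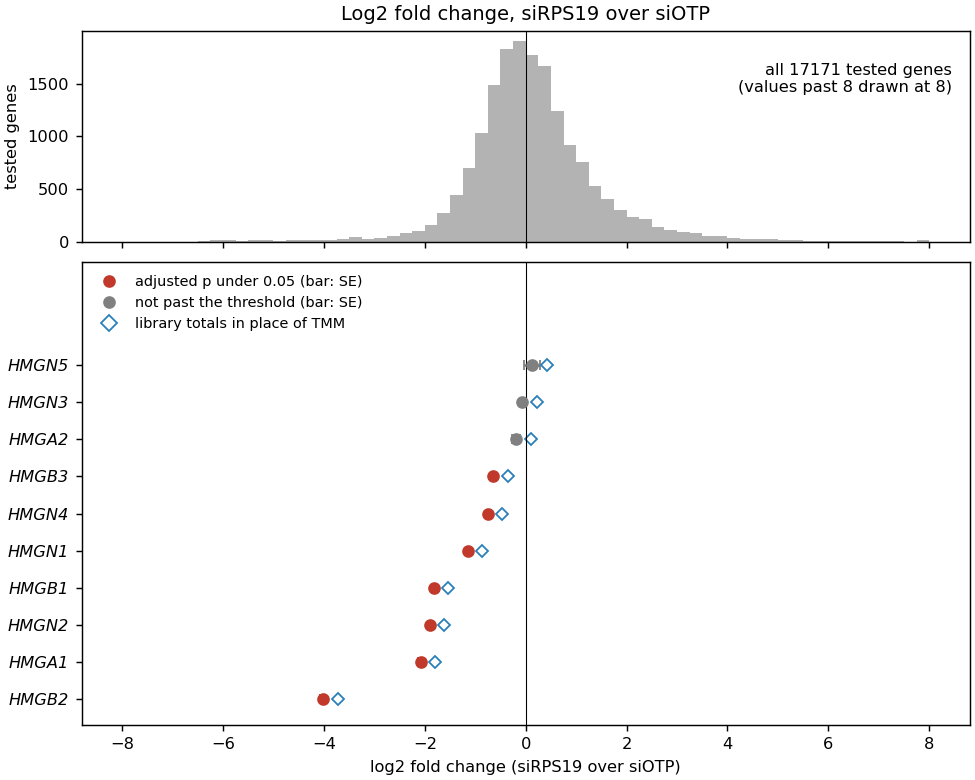
Upper panel: number of tested genes (vertical axis) by log2 fold change of siRPS19 over siOTP. Lower panel: the same quantity for each HMG gene (red, past the threshold; grey, not past; bars, SE), with open diamonds for scaling by library totals. HMGB2 sits lowest at -4.02, and the diamonds of HMGA2, HMGN3 and HMGN5 lie above 0.

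The scale of the libraries matters for the members that did not pass. When library totals replaced the TMM factors, the median of all genes shifted upward by 0.29 on the log2 scale. The 7 falls remained past the threshold on that scale, at -0.35 for HMGB3 to -3.73 for HMGB2. HMGN3 then stood at 0.22 (adjusted p = 0.0012, edgeR) and HMGN5 at 0.42 (adjusted p = 0.018, edgeR), while HMGA2 stood at 0.10. All 3 of these values are set against a median of 0.31 for all genes on the same scale, and only HMGN5 exceeded it.

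Because ratios of members within 1 library do not depend on its scaling, 4 pairs were compared in that way, on levels per kilobase of transcript. The log2 ratio of HMGB2 over HMGB1 was -2.79, -2.77 and -2.94 in siRPS19 libraries, against -0.59, -0.62 and -0.70 in siOTP libraries, a difference of -2.20 ± 0.06 (SE). That of HMGB3 over HMGB1 was -0.06, 0.02 and -0.04 in siRPS19, against -1.20, -1.21 and -1.21 in siOTP, a difference of 1.18 ± 0.03 (SE). Within the HMGB genes, then, HMGB2 lost ground to HMGB1 and HMGB3 gained on it.

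The log2 ratio of HMGA2 over HMGA1 was -3.34, -3.46 and -3.58 in siRPS19, against -5.34, -5.15 and -5.55 in siOTP, a difference of 1.89 ± 0.13 (SE). That of HMGN2 over HMGN1 was 0.60, 0.78 and 0.68 in siRPS19, against 1.46, 1.40 and 1.44 in siOTP, a difference of -0.74 ± 0.06 (SE). In each of the 4 pairs the groups did not overlap. The exact two-sided permutation p was 0.1 for every pair, also after adjustment over the 4, which is the smallest that 3 libraries against 3 allow.

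**Figure D3:**
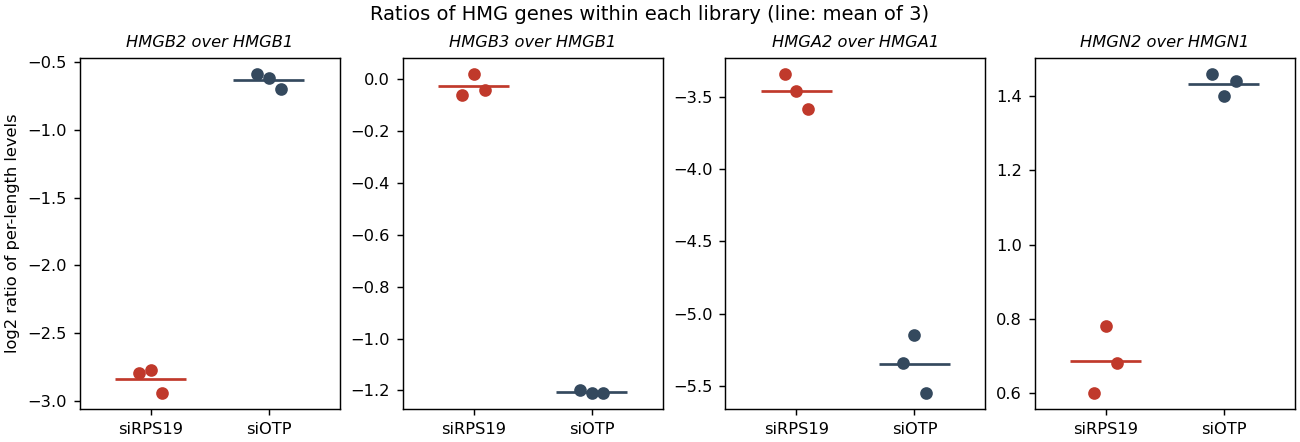
Log2 ratio of per-length levels within each library (vertical axes, which differ between panels) for 4 pairs of HMG genes, in siRPS19 (left, red) and siOTP (right, dark blue), with lines for the means of 3. HMGB3 reached about the level of HMGB1 in siRPS19 (mean -0.03), against -1.21 in siOTP.

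The order of the members by level changed as well. Levels per kilobase (RPKM, computed as TMM-normalised CPM divided by the authors' deposited transcript length in kilobases) were led in both groups by HMGA1, at 73.9 ± 1.08 RPKM in siRPS19 and 312 ± 31.0 RPKM in siOTP (n = 3 each, SD). In siRPS19 HMGN3 came next at 45.7 ± 1.78 RPKM, then HMGN4, HMGN2, HMGB1, HMGB3, HMGN1, HMGA2, HMGB2 and HMGN5. HMGB1 and HMGB3 overlapped in that order, at 27.2 ± 0.192 and 26.8 ± 1.02 RPKM, and no other neighbours did. In siOTP the order after HMGA1 was HMGN2, HMGB1, HMGB2, HMGN4, HMGN3, HMGB3, HMGN1, HMGA2 and HMGN5, with no overlap between neighbours. HMGB2 had rank 9 of 10 at 3.83 ± 0.251 RPKM in siRPS19, against rank 4 at 62.0 ± 3.31 RPKM in siOTP. The authors' deposited table, with 1 value per group, gives HMGB2 4.22 RPKM in siRPS19 and 55.98 RPKM in siOTP. It has HMGN3 (50.25 and 43.34 RPKM), HMGA2 (7.43 and 6.93) and HMGN5 (1.75 and 1.31) higher in siRPS19 than in siOTP. On the TMM scale used here, HMGN3 (45.7 and 48.0 RPKM) and HMGA2 (6.74 and 7.67) were instead lower in siRPS19, though neither passed the threshold.

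This order depends on the length assigned to each gene, which was 14808 bases for HMGA2 and 872 for HMGN3 in the deposited table. The longest GENCODE v29 transcripts are 8094 and 1010 bases. With those lengths, an alternative chosen after seeing the data, HMGA1 and HMGN2 led in both groups, HMGN3 had rank 3 in siRPS19 and rank 8 in siOTP, and HMGB2 kept its places.

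The 10 genes together held 799, 792 and 778 CPM in siRPS19 libraries, against 2360, 2268 and 2293 CPM in siOTP libraries. The summed level was 2.92-fold lower in siRPS19, and HMGB1, HMGA1 and HMGN2 made up 75.6% of the difference. Of the summed per-length level, HMGN genes took 47.4% ± 0.582 in siRPS19 and 32.0% ± 1.44 in siOTP (n = 3 each, SD), with HMGN3 alone at 17.4% ± 0.651 in siRPS19 and 6.29% ± 0.432 in siOTP. HMGA genes took 30.7% ± 0.765 in siRPS19 and 41.8% ± 2.92 in siOTP, and HMGB genes 22.0% ± 0.366 in siRPS19 and 26.2% ± 1.51 in siOTP (n = 3 each, SD). With raw counts in place of per-length levels, the difference of siRPS19 minus siOTP was -1.99 percentage points for HMGA, against -11.1, and 6.08 for HMGN, against 15.3, so the size of these differences depends on the length scaling. The shares add to 100%, so a smaller share of one subfamily raises the others.

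**Figure D4:**
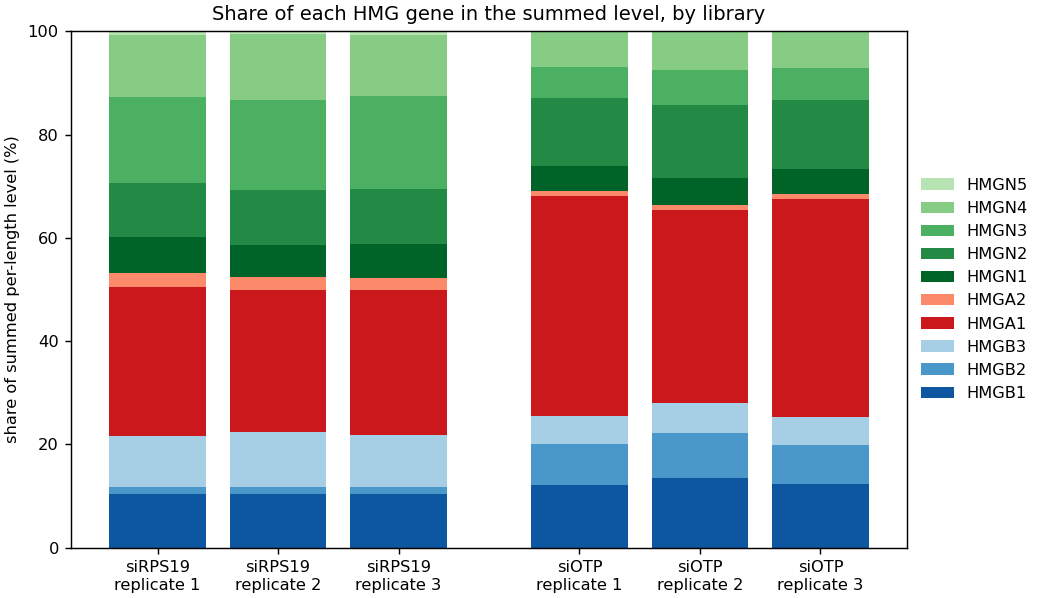
Share of each HMG gene in the summed per-length level of the 10 (vertical axis, percent) in each siRPS19 library (left) and siOTP library (right), in blue for HMGB, red for HMGA and green for HMGN. The green part is 46.7% to 47.9% in siRPS19 and 30.9% to 33.6% in siOTP.

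Pseudogenes can share reads with their parents, and 147 pseudogenes carry the name of a member. Of these, 45 had a count in some library, and 7 were tested. All 7 fell in edgeR's test, with a median log2 fold change of -1.49, where 38.9% of all tested genes were called lower. With library totals 6 fell, where 4734 of all 17171 tested genes were called lower. The filter on low counts kept some for their siOTP counts alone. HMGB3P24 had 10, 10 and 8 counts in siRPS19, against 16, 18 and 11 in siOTP. HMGB1P31, with 10, 12 and 12 counts in siRPS19, against 1, 5 and 4 in siOTP, was not tested. The 7 falls are therefore a description only. HMGB1P5 had 192, 187 and 180 counts in siRPS19, against 611, 615 and 558 in siOTP, a log2 fold change of -1.96 ± 0.08 (SE), close to that of HMGB1. HMGN1P38, HMGB3P6 and HMGN2P46 stood at -1.49, -1.04 and -1.03, and reads of each parent may be among these counts. Pseudogenes took 5.20% to 5.70% of the joint counts with HMGB1 in siRPS19 and 5.22% to 5.31% in siOTP, and less than that for every other member. With pseudogene counts added to their parents, the log2 fold changes were -1.82 for HMGB1, -4.01 for HMGB2 and -1.16 for HMGN1. HMGB4, the remaining human HMGB gene, was not tested.

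Other HMG-box genes were called about as often as all genes. Of 28 tested outside the family, 12 fell (42.9%) and 11 rose (39.3%), beside 38.9% and 39.5% of all tested genes, with a median log2 fold change of -0.12, and with library totals 9 fell and 15 rose with a median of 0.16. HMG20B, HMGXB3 and SOX12 changed sign between these scalings. SSRP1, the HMG-box subunit of the histone chaperone FACT, averaged 181 ± 3.62 CPM in siRPS19 and 577 ± 3.89 CPM in siOTP (n = 3 each, SD), a 3.19-fold fall. UBTF, the RNA polymerase I factor, fell 2.02-fold. The transcription factor gene SOX4 rose, at 285 ± 8.79 CPM in siRPS19 and 80.3 ± 2.22 CPM in siOTP (n = 3 each, SD), which is 3.55-fold. The other genes that rose were TOX2 (3.84-fold), CIC, SOX6, SOX7, TOX, TOX3, SMARCE1, TCF7, SOX2 and BBX, the last by 1.08-fold. SOX6 had 49, 44 and 44 counts in siRPS19, against 13, 18 and 8 in siOTP. It passed the filter on low counts only with its siRPS19 libraries, so its rise is a description only.

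Linker histones, whose binding HMGN proteins counter, were split, with a median of -0.44. Of those tested, 100% were called, beside 78.3% of all tested genes. Of 3 tested, H1F0 and H1FX fell, at log2 fold changes of -1.23 and -0.44, and HIST1H1C rose, at 39.1 ± 2.85 CPM in siRPS19 and 6.34 ± 1.11 CPM in siOTP (n = 3 each, SD). The other 6 linker histone genes had too few counts to test, each at most 20 over all libraries together. Of 5 tested genes of the SET complex, which contains HMGB2, 80% were called, beside 78.3% of all tested genes, and 3 fell. These were ANP32A at -1.30, SET at -1.07 and the repair nuclease gene APEX1 at -0.57 on the log2 scale. The nucleoside diphosphate kinase gene NME1 rose by 0.35, and TREX1 did not pass at 0.14, but was called at 0.43 with library totals (adjusted p = 0.0014, edgeR). NME1 overlaps NME2 and their joint transcript NME1-NME2, so reads of these genes cannot be fully separated.

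Among receptors and partners of extracellular HMGB1, 4 of 10 were tested, and CD24 was not analysed here. Of these 4, 2 rose and 1 fell (75% called, beside 78.3% of all tested genes). THBD, which encodes thrombomodulin, rose to 90.4 ± 7.10 CPM in siRPS19, against 42.0 ± 1.99 CPM in siOTP (n = 3 each, SD), and the interleukin receptor gene IL1R1 fell by 0.51 on the log2 scale. TLR2, a receptor of innate immunity, had 27, 21 and 34 counts in siRPS19, against 1, 2 and 0 in siOTP. It passed the filter on low counts through siRPS19 alone, so its rise is a description only. The summed counts, 82 in siRPS19 and 3 in siOTP, gave a ratio of 27.3 when scaled by library totals. The exact 95% interval of 9.01 to 135 covers counting error only, not the spread between replicates. With TMM the rise was 20.2-fold. AGER, the receptor RAGE, did not pass, at a log2 fold change of 0.38 (adjusted p = 0.094, edgeR), but was called at 0.66 with library totals (adjusted p = 0.0043, edgeR).

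Of 8 tested genes around let-7 and HMGA2, 4 fell and 2 rose (75% called, beside 78.3% of all tested genes). The median log2 fold change of the 8 was -0.07. With library totals 2 of the 8 fell and 5 rose, where 4734 of all 17171 tested genes fell and 9114 rose. LIN28B, whose protein blocks let-7 maturation, averaged 4.70 ± 0.353 CPM in siRPS19 and 14.7 ± 0.811 CPM in siOTP (n = 3 each, SD). IGF2BP2, a known target of HMGA2 in mouse and human cells, fell by 0.72 on the log2 scale. IGF2BP1, at -0.27, and DIS3L2, at -0.15, also fell, but with library totals stood at 0.02 and 0.13. DICER1, the microRNA processing enzyme, rose by 0.39 and the uridylyltransferase gene ZCCHC6 by 0.17. The microRNAs themselves were not measured.

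Proliferation genes were lower in the same libraries, and their part in the HMG results was not tested. All 10 fell, where 38.9% of all tested genes were called lower, with a median log2 fold change of -5.35. With library totals 8 fell, where 4734 of all 17171 tested genes were called lower. PCNA, at -0.17 before, was called higher at 0.12 on that scale (adjusted p = 0.0285, edgeR). CCNB1 averaged 16.4 ± 0.874 CPM in siRPS19 and 373 ± 3.88 CPM in siOTP, and MCM2 16.1 ± 0.752 CPM in siRPS19 and 192 ± 2.85 CPM in siOTP (n = 3 each, SD). HMGB2, at -4.02, lay between MCM2 at -3.57 and CCNB1 at -4.51, and every other HMG gene lay above MCM2. The proliferation genes themselves ran from BIRC5 at -6.16 to PCNA at -0.17. PCNA and TYMS, the latter at -0.37, fell less than HMGB3 at -0.64, the smallest of the 7 HMG falls. By root mean square difference of centred log2 CPM over the 6 libraries, the genes nearest to HMGB2 among 8869 were RACGAP1, a cytokinesis gene (0.069), SGOL2, a protector of centromeric cohesion (0.087), and the repair gene BRCA1 (0.093). RACGAP1 averaged 13.0 ± 0.145 CPM in siRPS19 and 204 ± 5.32 CPM in siOTP (n = 3 each, SD). The 2 groups of libraries dominate this measure, so it is a description of level changes only.

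**Figure D5:**
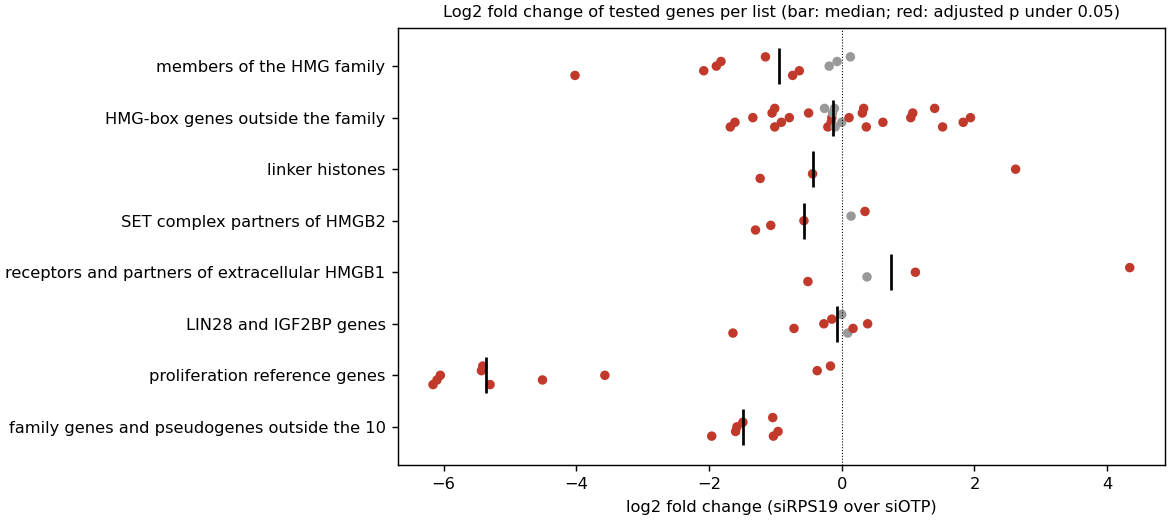
Log2 fold change of siRPS19 over siOTP (horizontal axis) for each tested gene (points; red, past the threshold; grey, not past) in the HMG family and 7 related lists (rows), with bars for medians. The median is -0.95 for the 10 HMG genes, -5.35 for the proliferation genes and -0.12 for the HMG-box genes outside the family.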

How the data were processed

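RNA of 6 A549 libraries was analysed. The authors deposited raw read counts per Ensembl gene for each library. The build was hg19, and R (3.0.2), DESeq, HTSeq and TopHat2 (2.0.8b) are listed, per the submitters' processing notes. Not given in the sources used here are the counting mode, the strand setting and the gene annotation version. The entry for reads aligned to several places is 0 in every library. The authors also deposited RPKM, as 1 value per group with a transcript length per gene, used for description and for levels per kilobase. The 6 columns of 2 series-wide count tables, which repeat the libraries' counts, were not used.

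Genes were kept with filterByExpr (minimum count 10, minimum total 15), scaled with TMM and tested with edgeR 4.0.16 (glmQLFit with robust estimation, then glmQLFTest; R 4.3.3). P-values of all 17171 genes were adjusted together by Benjamini-Hochberg, and the threshold was 0.05. Each SE of an edgeR log2 fold change is the size of that fold change over the root of F. The SE of each ratio difference was computed from the variances of the 2 groups of 3 libraries. The code was tested on simulated data. Subfamily shares, for which a permutation test had been planned, are given without one because they score the members together. Also tried were 3 other scalings, 2 other filters, omitted libraries, a replicate block, merged pseudogenes, limma-voom (limma 3.58.1) and DESeq2 1.42.0. A further alternative length was added after seeing the data.

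Entries that name no gene stayed out of library sizes: ambiguous reads took 7.5% to 7.6% of entries in siRPS19 and 8.10% to 8.24% in siOTP, and reads outside genes are given in the report. Between replicates, chi-square per degree of freedom was at least 4.4 and at most 16.6, above sampling noise for every pair. Replicates with 1 number carry 1 date in the labels, though the labels do not say which step it marks. The main test did not pair these libraries, and the replicate number entered as a block in an alternative only. Over 8870 genes, correlations of paired deviations from the mean of each group were 0.28, -0.16 and 0.21. The members and lists were chosen with earlier results of these data known. Named are the 10 members, RPS19, per list up to 4 genes past the threshold, taken by lowest p, genes moving against a list's majority, overlapping genes, the most counted pseudogenes and the 3 patterns nearest to the member with the largest fall. Genes named beyond this rule, such as TREX1, AGER, DIS3L2 and the markers, were chosen after their values were seen or from the marker list. A gene that the rule would name is not reported here.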

Additional observations from a re-analysis of the deposited data

How the results depend on the processing

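The 7 falls kept their direction and their side of the threshold under all 18 alternatives, with log2 fold changes of -4.07 to -3.73 for HMGB2, -2.18 to -1.79 for HMGA1, -1.94 to -1.61 for HMGN2, -1.87 to -1.54 for HMGB1, -1.20 to -0.86 for HMGN1, -0.80 to -0.46 for HMGN4 and -0.69 to -0.35 for HMGB3. HMGA2, not past the threshold in the main test, passed with RLE factors (-0.19, adjusted p = 0.048), DESeq2 (-0.19, 0.018), no filter on low counts (-0.24, 1.62e-06) and the replicate block (-0.19, 1.87e-04), and turned to 0.10 with library totals (0.21). With libraries left out it ran from -0.27 to -0.11, past the threshold without siRPS19 replicate 1 (-0.24), siOTP replicate 3 (-0.27), or replicate 1 (-0.18) or 3 (-0.19) of both groups. HMGN3 turned to 0.22 with library totals and 0.10 with upper-quartile factors (adjusted p = 0.0012 to 0.71 over its alternatives). HMGN5 passed at 0.42 with library totals, so that 2 members were called higher there, and ran from -0.01 to 0.25 with libraries left out, with -0.00 when siRPS19 replicate 3 was omitted and -0.01 when both libraries numbered 3 were (adjusted p = 0.018 to 1.0). The replicate block changed no other call among the members. In the list of receptors and partners of extracellular HMGB1, 5 genes were called without a filter, against 3. AGER and TREX1 were also called with upper-quartile factors, at 0.55 (adjusted p = 0.017) and 0.32 (0.015). With raw counts in place of per-length levels, the HMGA share differed by -1.99 percentage points and the HMGN share by 6.08, against -11.1 and 15.3. With the longest GENCODE transcripts as lengths they differed by -7.73 and 12.6. Over all genes, library totals gave 9114 higher and 4734 lower calls, against 6778 and 6673, and upper-quartile factors 8187 and 5505. The sign-flip test over the 3 pairs cannot go below 0.25. Causes of these changes were not tested. HMGN5 had the fewest counts of the members, at 67 to 110 per library.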
